A study of Mus musculus with 8 samples.

Results

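The genes described here encode the nuclear-encoded subunits of the mitochondrial respiratory chain and of ATP synthase, together with the assembly factors that share their name stems. Members were all probe sets whose annotation holds 1 gene symbol starting with Nduf, Uqcr, Sdha to Sdhd, Cox4 to Cox8 or Atp5. This rule found 185 probe sets of 94 genes among 45037 probe sets on the array, of which 34945 carried 1 symbol, for 18193 genes. Of the 94 genes, 82 encode subunits or their isoforms and 12 encode assembly factors, so the set is wider than subunits alone. Another 10 probe sets carry several symbols, 1 of them of these names, and were not used. A gene had up to 6 probe sets, and 53 genes had more than 1. All 94 genes were found in the RefSeq table, on 19 chromosomes.

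The study asked how loss of the transcription factor Ctip2, encoded by Bcl11b and found in medium spiny neurons, alters gene expression in the newborn striatum. The groups were 4 Ctip2-/- (null) mice, 1 heterozygote and 3 wild type mice, all BALB/c and all taken at postnatal day 0. From each mouse, a punch 500 µm across from the middle of the striatum, in a coronal slice 300 µm thick, gave total RNA for 1 Affymetrix array. The sources used here do not say which part of Bcl11b the null allele lacks, and no label restricts it to a cell type. Since each array holds RNA of a tissue punch, fewer cells of a type and less RNA per cell cannot be told apart.

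Complexes I and II pass electrons from NADH and succinate to ubiquinone, complex III passes them on to cytochrome c, and complex IV hands them to oxygen. Complexes I, III and IV pump protons, and ATP synthase (complex V) lets protons flow back to make ATP. Most subunits are encoded in the nucleus and imported into mitochondria. A few core subunits are encoded in mitochondrial DNA, so assembly needs both genomes. Neurons depend heavily on oxidative phosphorylation, and these transcripts are abundant in brain.

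The arrays bore out the null genotype at Bcl11b. Its brightest probe set averaged 11.18 ± 0.20 log2 units in null and 12.29 ± 0.25 in wild type striatum (SD, n = 4 and 3). The null minus wild type difference was -1.11 (limma, adjusted p = 0.0091), and null arrays lay below wild type arrays on all 4 Bcl11b probe sets. The heterozygote array read 12.43 on the brightest, not below the wild type mean, so this value did not bear out the heterozygous genotype. The deposited values had array medians between 6.21 and 6.35, but the SD over all probe sets differed between arrays, from 1.84 to 2.06. It was 1.96, 2.03, 2.05 and 1.90 on null arrays 1 to 4, 2.06 on the heterozygote array and 1.97, 1.84 and 1.87 on wild type arrays 1 to 3. The summed signals of 4 marker lists did not overlap between groups, though few of their genes passed the threshold. The summed signal of 8 pan-neuronal genes ranged from 14.45 to 14.76 in null and from 14.18 to 14.39 in wild type striatum, higher in null for 8 of 8 genes with 1 past the threshold. That of 8 astrocyte and radial glia genes ranged from 12.78 to 12.98 in null and from 12.41 to 12.74 in wild type striatum (6 of 8 higher, 1 past the threshold). That of 8 microglial genes ranged from 10.87 to 11.36 in null and from 10.50 to 10.69 in wild type striatum (7 of 8 higher, 0 past the limma threshold, where 6 of their 13 probe sets had an unadjusted p under 0.05). That of 6 cortical projection neuron genes ranged from 8.44 to 8.71 in null and from 8.75 to 8.83 in wild type striatum (5 of 6 lower, 0 past the limma threshold and 0 of 9 probe sets with an unadjusted p under 0.05). Medium spiny neuron genes summed to between 13.79 and 14.06 in null and between 13.87 and 14.00 in wild type striatum. By their brightest probe sets, 3 of 10 genes were past the threshold and lower in null. Over all 28 of their probe sets, 7 were called lower and 1 higher. Choroid plexus genes ranged from 9.71 to 13.56 in null and from 10.45 to 13.45 in wild type striatum, and those of oligodendrocyte, vascular, erythroid and proliferating cells overlapped between groups too. On the heterozygote array the 4 sums that did not overlap were 14.56, 13.03, 10.64 and 8.29, in the order given above. Of the 6 cortical genes, 4 were below the median signal of the array. In the lower 6 of 10 classes of signal, 73.9% of all probe sets had a difference below 0. The pan-neuronal genes had mean signals from 9.32 up, in the class where the median difference of all probe sets was 0.16. RMA values have no zero, so no marker can be called absent. Over all probe sets, 10.9% were higher and 8.74% lower in null at an unadjusted p under 0.05. At an adjusted p under 0.05 these were 1.87% and 0.453%. By single probe sets, null arrays lay above wild type arrays on 11 of 18 pan-neuronal, 1 of 25 astrocyte and radial glia and 5 of 13 microglial ones, against 7.7% of all. They lay below on 2 of 9 cortical ones, against 8.85% of all. Of the 25 astrocyte and radial glia probe sets, 10 had a difference below 0. The part of any of these lists in the members' values was not tested.

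Respiratory chain and ATP synthase transcripts were, as a set, slightly below wild type in null striatum. The median difference of the 185 probe sets was -0.16 log2 units (interquartile range -0.27 to -0.03), and 145 of them (78.4%) had a difference below 0, beside a median of -0.08 and 62.0% below 0 over all 45037 probe sets. With 1 probe set per gene, the median was -0.16, with 69 of 94 genes below 0, against 60.6% of all genes. No member differed by over 1 log2 unit, 11 were lower in null by over 0.5 and 1 was higher by over 0.5.

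No member passed the test in either direction. Limma, fitted on all probe sets with Benjamini-Hochberg adjustment and a threshold of 0.05, called 0 members higher in null, where 1.87% of all probe sets were called higher, and 0 lower, where 0.453% were. The smallest adjusted p of a member was 0.0744. At an unadjusted p under 0.05 there were 4 members (2.16%) higher and 32 (17.3%) lower in null, beside 10.9% and 8.74% of all probe sets. By a SAM-like d beyond 2 there were 1 higher (a dim Cox7c probe set) and 1 lower (Ndufb10), beside 3.23% and 0.768% of all probe sets. With array weights in limma, 3 members (1.62%) were called higher and 5 (2.70%) lower, beside 5.96% and 2.14% of all probe sets. At an adjusted p under 0.1 these were 3 (1.62%) and 3 (1.62%), beside 3.75% and 0.997%. Rescaling the arrays to a common median and SD gave 1 higher and 0 lower (1.82% and 0.493% of all probe sets), and quantile normalization gave 1 and 0 (1.86% and 0.728%). Member shares higher in null were thus below those of the whole array under each of these alternatives. Shares lower in null were above those of the whole array at an unadjusted p under 0.05. They were also above with array weights and at an adjusted p under 0.1, and below under the others. The SE of a member's difference had a median of 0.146 log2 units and ran from 0.107 to 0.358, so with 4 and 3 arrays a difference of the typical member's size lay close to its own error.

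The ordering of the arrays showed the shift more plainly than the test of each probe set. On 50 members (27.0%) every null array lay below every wild type array, while 8.85% of all probe sets had that order. On 5 members (2.70%) every null array lay above every wild type array, against 7.7% of all probe sets. These 50 probe sets belonged to 35 genes, and the 5 to 4 genes. Of the 50, 43 had their lowest value of all 8 arrays on null array 3.

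Null array 3 stood apart from the other null arrays on these genes. The members' median departure from the 8-array mean was -0.0081, -0.0093, -0.247 and -0.016 on null arrays 1 to 4, 0.017 on the heterozygote array and 0.111, 0.0992 and 0.0647 on wild type arrays 1 to 3. Every null array thus lay below every wild type array, with the heterozygote between the groups. The group means of these medians were -0.070 ± 0.118 in null and 0.092 ± 0.024 in wild type striatum (SD, n = 4 and 3), and the null mean without array 3 was -0.011. Null array 3 held the lowest of the 8 values on 101 of the 185 members and the lowest of the 4 null values on 65.9% of members, against 34.6% of all probe sets. Without it the members' median difference was -0.10, beside -0.07 over all probe sets, and 140 members were below 0. Null arrays then lay below wild type arrays on 52 members (28.1%, against 10.2% of all probe sets) and above on 6 (3.24%, against 8.57%). The median was thus smaller without null array 3, while the count of members whose null and wild type arrays did not overlap was much the same.

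**Figure D1:**
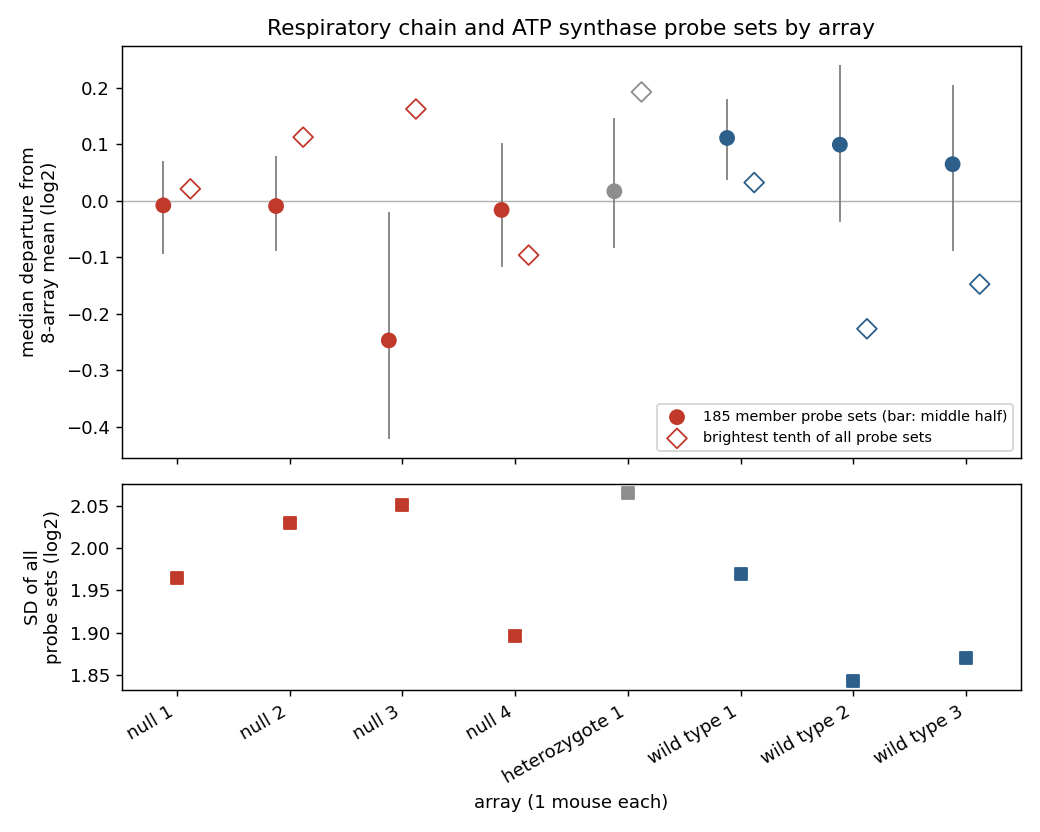
Upper panel, for each of the 8 arrays, the median departure of the 185 member probe sets from their 8-array mean (filled circles; bars, interquartile range; log2) and that of the brightest 10% of all probe sets (open diamonds). Lower panel, the SD of all probe sets on each array (log2). Member medians lie at or below 0 on the 4 null arrays, lowest at -0.247 on null array 3, and between 0.0647 and 0.111 on the 3 wild type arrays, while the diamonds follow the SD.

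The members went the other way from other bright probe sets. Of the 185, 124 (67.0%), from 76 genes, were among the brightest 10% of the array, which holds 4504 probe sets. All probe sets of that class had a median difference of 0.16 and 34.5% had a difference below 0. The 124 members there had a median of -0.16, with 99 (79.8%) below 0, and the other 4380 probe sets a median of 0.17. Among these others, 71 probe sets picked by the symbol stems of cytosolic ribosomal proteins (Rpl or Rps) had a median of -0.24, with 95.8% below 0. Another 57, of mitochondrial ribosomal proteins, had a median of -0.14, with 70.2% below 0. Null arrays lay below wild type arrays on 38 of these 124 members (30.6%) and above on 3 (2.42%), while in the whole class they did so on 8.84% and 19.1% of probe sets. The next 10% by signal gave a median of -0.24 for 18 members against 0.15 for all its probe sets. In the lower 6 classes, the 37 members had a median of -0.13 and all probe sets there one of -0.13. Members and other probe sets thus had opposite medians in the brighter classes and like medians in the dimmer ones.

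The bright class depended on how the spread of the arrays was handled, while the members' median was below 0 in each case. The median departure of the brightest 10% of all probe sets was 0.021, 0.113, 0.162 and -0.096 on null arrays 1 to 4, 0.193 on the heterozygote array and 0.032, -0.226 and -0.147 on wild type arrays 1 to 3. These departures stood in the order of the arrays' SDs, and the group means were 0.050 ± 0.114 in null and -0.114 ± 0.133 in wild type striatum. With the array SD as a covariate, the bright class had a median difference of -0.01 and the members one of -0.10. After rescaling every array to a common median and SD, the medians were 0.03 for the bright class and -0.30 for the members, with 147 members below 0. Quantile normalization of the deposited values gave -0.01 and -0.25. After rescaling, null arrays lay below wild type arrays on 50 members (27.0%, against 7.2% of all probe sets) and above on 3 (1.62%, against 9.19%). After quantile normalization these counts were 58 (31.4%, against 8.99% of all) and 4 (2.16%, against 8.23%).

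**Figure D2:**
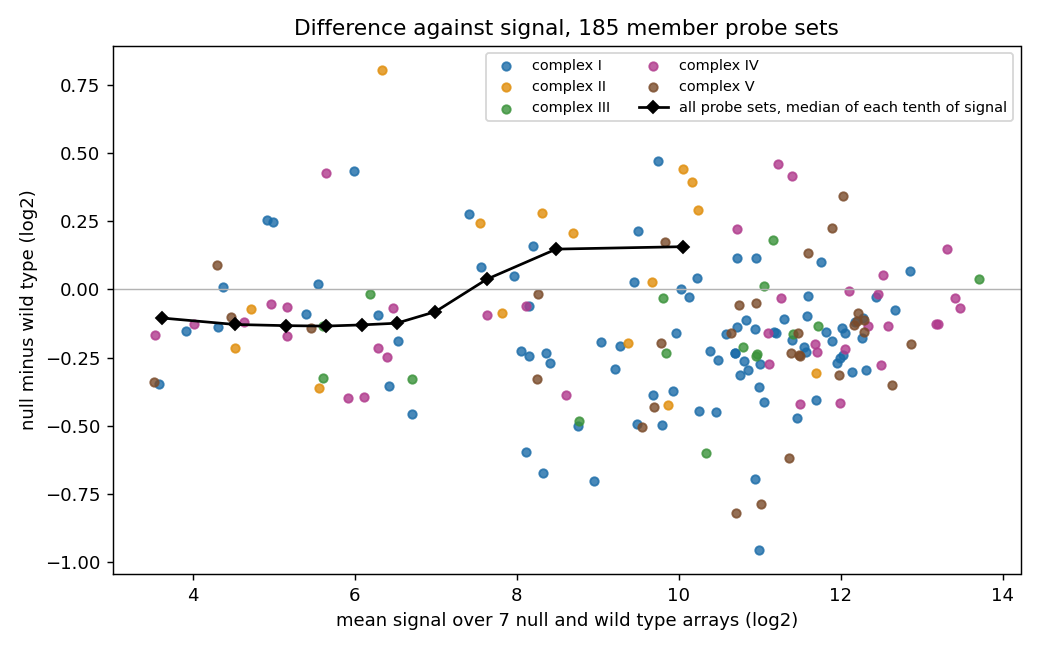
Null minus wild type difference (log2) of each member probe set against its mean signal over the 7 null and wild type arrays (log2), coloured by complex; black diamonds give the median difference of all probe sets in each of 10 classes of signal. Most members above a signal of 9 lie below 0 while the black line there is at 0.15 to 0.16.

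Complex I, the NADH dehydrogenase, contributed 86 probe sets of 42 genes. Its median difference was -0.19, with 68 below 0 (79.1%, against 62.0% of all probe sets). Null arrays lay below wild type arrays on 25 (29.1%, against 8.85% of all) and above on 1 (1.16%, against 7.7% of all). The core subunits, which carry the flavin and iron-sulfur clusters, had a median of -0.18 over 16 probe sets of 6 genes, and the accessory subunits, which surround the core, one of -0.19 over 60 probe sets of 28 genes. The 10 probe sets of complex I assembly factors had a median of -0.02, with 5 below 0.

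The largest difference among all members was that of Ndufb10, an accessory subunit of the membrane arm of complex I. It read 10.86, 10.95, 9.89 and 10.61 in null striatum, 10.65 on the heterozygote array and 11.35, 11.51 and 11.75 in wild type striatum. All null arrays and the heterozygote lay below all wild type arrays, with null array 3 lowest. The means were 10.58 ± 0.48 in null and 11.54 ± 0.20 in wild type striatum (SD, n = 4 and 3), a difference of -0.96 (SE 0.239, adjusted p = 0.0744), or 1.94-fold lower in null. Over the alternatives its adjusted p ran from 0.0297 with array weights to 0.423 with the array SD as a covariate.

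Ndufa1, an X-linked accessory subunit and the brightest member of complex I, differed far less. It read 12.90, 12.99, 12.74 and 12.91 in null striatum, 13.02 on the heterozygote array and 13.06, 12.61 and 12.78 in wild type striatum. The groups overlapped, and the difference was 0.07 (adjusted p = 0.778), which was below 0 after rescaling (-0.17), with the array SD as a covariate (-0.02) and without wild type array 2 (-0.04).

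Some further complex I genes were chosen after their values were seen. Ndufa7, an accessory subunit, had 5 probe sets and null arrays lay below wild type arrays on all 5, with differences of -0.45 to -0.69 and adjusted p of 0.117 to 0.265. Its brightest probe set read 11.03, 10.88, 9.60 and 11.08 in null striatum, 10.32 on the heterozygote array and 11.19, 11.45 and 11.39 in wild type striatum. Ndufs8, an iron-sulfur core subunit, had 6 probe sets with differences of -0.19 to -0.29, all with overlapping groups (adjusted p of 0.342 to 0.515). Ndufb9, an accessory subunit, had a difference of -0.47 (adjusted p = 0.0859) on one probe set and -0.29 on a brighter one, without overlap on either, and -0.09 with overlap on a dim one. Ndufaf2, an assembly factor with 1 probe set, had a difference of -0.70 (adjusted p = 0.140). Ndufs1, the core subunit with the most iron-sulfur clusters, ran the other way. It read 9.91, 10.05, 10.26 and 9.56 in null striatum, 10.17 on the heterozygote array and 9.86, 9.47 and 9.08 in wild type striatum. Its groups overlapped, with a difference of 0.47 (adjusted p = 0.256), and null array 3 was its highest rather than its lowest array.

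Complex II, succinate dehydrogenase, had 15 probe sets of 8 genes with a median difference of 0.03, with 7 below 0. Null arrays lay below wild type arrays on 2 (13.3%), near the 8.85% of all probe sets. Sdhb, the iron-sulfur subunit and the brightest gene of the complex, read 11.66, 11.70, 11.45 and 11.42 in null striatum, 11.89 on the heterozygote array and 11.96, 11.80 and 11.84 in wild type striatum. Null arrays lay below wild type arrays, with a difference of -0.31 (SE 0.125, adjusted p = 0.223). The largest difference was that of Sdhaf3, which helps the iron-sulfur subunit mature. One of its probe sets read 6.78, 6.96, 6.76 and 6.20 in null striatum, 7.12 on the heterozygote array and 6.63, 4.87 and 6.12 in wild type striatum. The groups overlapped, and the difference of 0.80 (SE 0.358, adjusted p = 0.254) was 0.30 without wild type array 2 and 0.19 with the array SD as a covariate. Its other probe set differed by -0.07. Sdha, the flavoprotein subunit, was chosen after its values were seen. It differed by 0.44 and 0.39 on its bright probe sets and by -0.36 and -0.21 on its dim ones, so its probe sets disagreed in sign. The brighter pair was highest of the null arrays on null array 3, at 10.81 and 10.71.

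Complex III, the cytochrome bc1 complex, had a median difference of -0.19 over 16 probe sets of 8 genes, with 13 below 0. The 12 probe sets of accessory subunits had a median of -0.22 and the 4 of core subunits one of -0.06. Uqcr10, a small accessory subunit, had the largest difference. It read 10.43, 10.21, 9.16 and 10.50 in null striatum, 9.59 on the heterozygote array and 10.64, 10.73 and 10.66 in wild type striatum. Null arrays lay below wild type arrays, at 10.08 ± 0.62 in null and 10.68 ± 0.045 in wild type striatum (SD, n = 4 and 3), but the spread among null arrays was wide and the difference of -0.60 had an adjusted p of 0.274. It was -0.29 without null array 3 and -0.20 with the array SD as a covariate. Its other probe sets differed by -0.48 (adjusted p = 0.228) and -0.32 (adjusted p = 0.369). Uqcrb, a ubiquinone-binding subunit and the brightest member of all, read 13.75, 13.71, 13.75 and 13.69 in null striatum, 13.71 on the heterozygote array and 13.69, 13.66 and 13.73 in wild type striatum. The groups overlapped, with a difference of 0.04 (adjusted p = 0.843) that was -0.25 after rescaling.

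**Figure D3:**
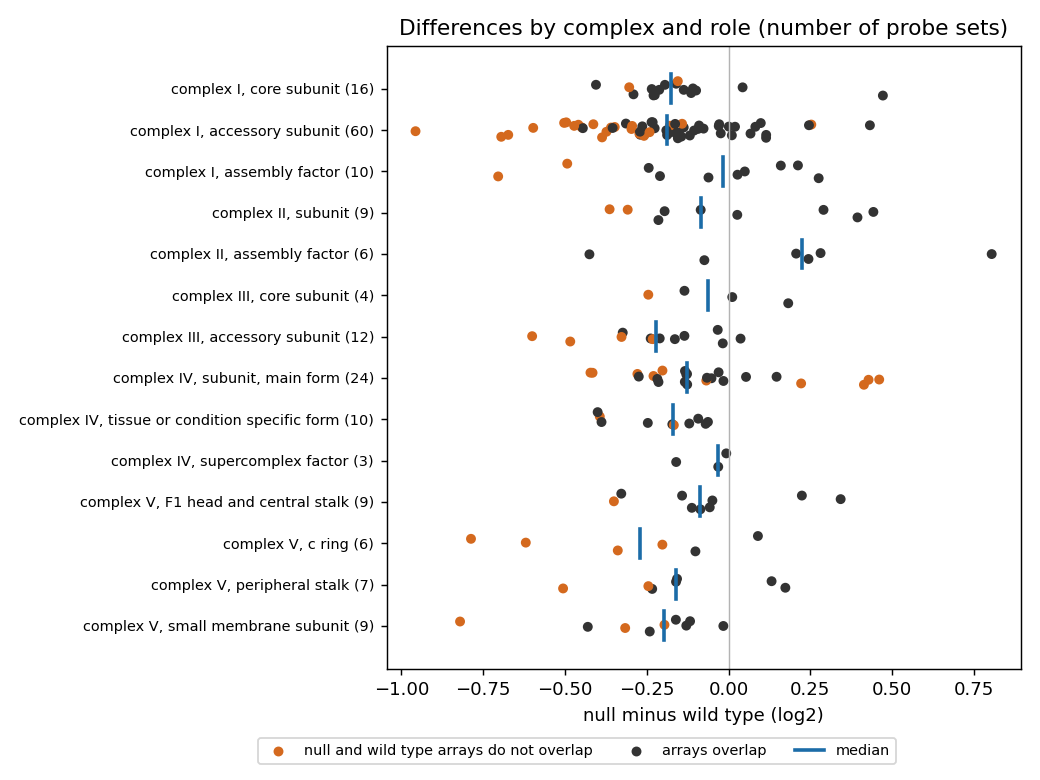
Null minus wild type difference (log2) of every member probe set, in rows by complex and role with the number of probe sets in parentheses; orange points mark probe sets whose null and wild type arrays do not overlap, and blue bars the median. The lowest medians are those of the c ring of ATP synthase (-0.27) and of complex III accessory subunits (-0.22), and the highest that of complex II assembly factors (0.23).

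Complex IV, cytochrome c oxidase, had a median difference of -0.13 over 37 probe sets of 19 genes. Of these, 31 were below 0, with null arrays below wild type on 8 (21.6%, against 8.85% of all probe sets) and above on 4. The 4 above were 10.8% of its probe sets, near the 7.7% of all probe sets, and came from 3 genes. The brightest of its genes, Cox6a1, the widely expressed form of its subunit, read 13.49, 13.45, 13.36 and 13.47 in null striatum, 13.45 on the heterozygote array and 13.54, 13.50 and 13.49 in wild type striatum. Its groups just failed to overlap, and the difference was -0.07 (adjusted p = 0.712), or 0.0023 after quantile normalization.

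Ndufa4, first assigned to complex I and now placed in complex IV, read 11.36, 11.40, 11.47 and 11.45 in null striatum, 11.25 on the heterozygote array and 11.16, 10.83 and 10.90 in wild type striatum. Every null array lay above every wild type array, with the heterozygote between. The means were 11.42 ± 0.049 in null and 10.96 ± 0.17 in wild type striatum (SD, n = 4 and 3), a difference of 0.46 (SE 0.123, adjusted p = 0.0917), or 1.38-fold higher in null. It passed the threshold without wild type array 1 (0.56, adjusted p = 0.0406) and with array weights (0.46, adjusted p = 0.0294), but was 0.30 (adjusted p = 0.203) after rescaling, and its adjusted p was as high as 0.340, with the array SD as a covariate.

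Cox8a, the widely expressed form of a small nuclear-encoded subunit, ran the same way on its bright probe sets. The brightest read 11.57, 11.68, 11.51 and 11.53 in null striatum, 11.35 on the heterozygote array and 11.10, 11.15 and 11.23 in wild type striatum. The means were 11.57 ± 0.075 in null and 11.16 ± 0.070 in wild type striatum (SD, n = 4 and 3), a difference of 0.41 (SE 0.113, adjusted p = 0.0975), or 1.33-fold higher in null. After rescaling it was 0.24 (adjusted p = 0.343) and with array weights 0.40 (adjusted p = 0.0421). The second read 10.86, 10.89, 10.68 and 10.81 in null striatum, 10.59 on the heterozygote array and 10.48, 10.67 and 10.63 in wild type striatum, a difference of 0.22 (adjusted p = 0.313). Neither had overlapping groups, while a dim probe set differed by -0.07. Cox7c, chosen after its values were seen, had a dim probe set at 5.78, 5.74, 5.86 and 5.91 in null striatum, 5.89 on the heterozygote array and 5.47, 5.36 and 5.36 in wild type striatum. Its difference of 0.43 (adjusted p = 0.0885) passed the threshold after rescaling (adjusted p = 0.0485), quantile normalization (0.0446) and array weights (0.0358), and had an adjusted p of up to 0.548, with the heterozygote among the controls. A dimmer probe set of Cox7c differed by -0.13 with overlap.

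Among the other isoform sets of complex IV, no form passed the test. Cox4i1, the widely expressed form, read 12.63, 12.59, 12.24 and 12.63 in null striatum, 12.57 on the heterozygote array and 12.75, 12.61 and 12.61 in wild type striatum, a difference of -0.13 (adjusted p = 0.561) with overlap, which was -0.04 without null array 3 and -0.36 after rescaling. Cox4i2, the form known from lung and from low oxygen, was dim. It read 5.87, 5.98, 5.86 and 6.05 in null striatum, 5.76 on the heterozygote array and 6.12, 6.42 and 6.47 in wild type striatum, without overlap, a difference of -0.39 (adjusted p = 0.158, and from 0.0323 with array weights to 0.684 with the heterozygote among the controls). Cox6a2, the form of heart and skeletal muscle, differed by -0.39 (adjusted p = 0.230) and -0.17 on its probe sets. Cox6b1 differed by 0.15 (adjusted p = 0.477; -0.12 after rescaling) and -0.02, and Cox6b2, its testis form, by -0.40 (adjusted p = 0.235). Cox7a2 differed by -0.13 (adjusted p = 0.633; 0.0090 without null array 3) and -0.22 (-0.02 without that array), and Cox7a1, its muscle form, by -0.12 (adjusted p = 0.649), which was above 0 after rescaling, with array weights and without wild type array 2. Cox8b, a muscle form, differed by -0.25 and the testis form Cox8c by -0.06 and -0.07. Ndufa4l2, the paralogue of Ndufa4 induced by low oxygen, differed by -0.09 (adjusted p = 0.725). Both signs were found for Cox8c and Ndufa4l2 over the alternatives. The 10 probe sets of tissue or condition specific forms had a median of -0.17 with all 10 below 0. Most are dim, and over all probe sets in the lower 6 classes of signal the median was -0.13 with 73.9% below 0. Cox5b, a zinc-binding subunit chosen after its values were seen, showed how far probe sets of 1 gene could differ. Its 6 probe sets differed by -0.03 to -0.42, with 2 free of overlap. Cox7a2l, which joins complexes III and IV into supercomplexes, had a median of -0.03 over 3 probe sets.

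ATP synthase had 31 probe sets of 17 genes with a median difference of -0.16, 26 below 0 (83.9%). Null arrays lay below wild type arrays on 10 (32.3%, against 8.85% of all probe sets) and above on 0 (7.7% of all). The proton-driven c ring had the lowest median of any role, -0.27 over 6 probe sets of 3 genes. The 9 probe sets of small membrane subunits had a median of -0.20 (9 below 0), the 7 of the peripheral stalk one of -0.16 and the 9 of the F1 head and central stalk, where ATP is made, one of -0.09.

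Atp5g1, Atp5g2 and Atp5g3 encode the same mature c subunit behind different import sequences. Atp5g1 read 10.98, 10.90, 10.06 and 10.80 in null striatum, 10.87 on the heterozygote array and 11.44, 11.56 and 11.42 in wild type striatum. The means were 10.68 ± 0.42 in null and 11.47 ± 0.075 in wild type striatum (SD, n = 4 and 3), a difference of -0.79 (SE 0.209, adjusted p = 0.0906), or 1.73-fold lower in null. Its adjusted p ran up to 0.472 with the array SD as a covariate. Its lowest wild type array stood above its highest null array.

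Atp5g2 read 11.26, 11.39, 10.58 and 11.18 in null striatum, 11.32 on the heterozygote array and 11.89, 11.51 and 11.76 in wild type striatum, a difference of -0.62 (SE 0.196, adjusted p = 0.143). Atp5g3, the brightest gene of the complex, read 12.78, 12.81, 12.72 and 12.81 in null striatum, 12.91 on the heterozygote array and 12.97, 13.02 and 12.96 in wild type striatum, a difference of -0.20 (SE 0.108, adjusted p = 0.314). For all 3 genes the main probe set had no overlap between null and wild type arrays. Dim probe sets of Atp5g1 (0.09) and Atp5g2 (-0.10 and -0.34) gave smaller differences.

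**Figure D4:**
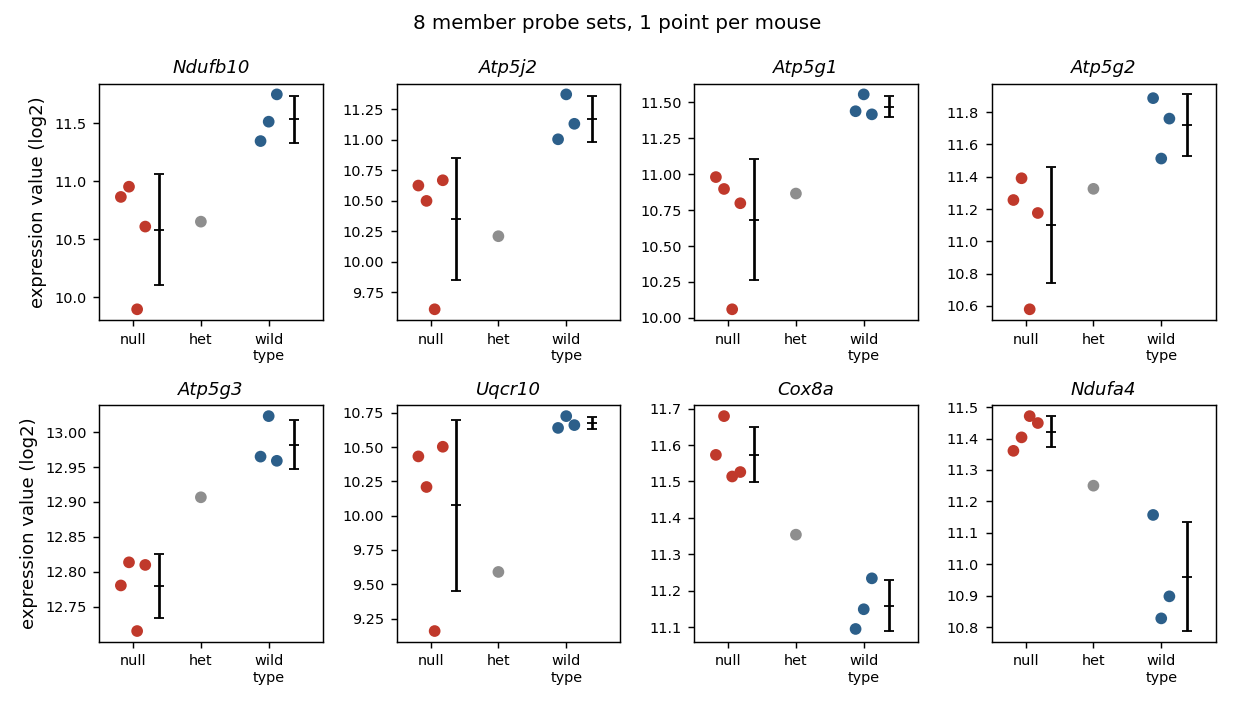
Expression values (log2) of 8 member probe sets in null (left), heterozygote (middle) and wild type (right) striatum, 1 point per mouse; black marks give mean and SD of each group with several mice, and each panel has its own axis, which does not start at 0. In the first 6 panels every null array lies below every wild type array and in Cox8a and Ndufa4 above; null array 3 is the lowest point of the first 6.

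The largest difference in ATP synthase was that of Atp5j2, subunit f of the membrane part. One probe set read 10.63, 10.50, 9.61 and 10.67 in null striatum, 10.21 on the heterozygote array and 11.01, 11.37 and 11.13 in wild type striatum, a difference of -0.82 (SE 0.245, adjusted p = 0.124). Its brightest read 12.03, 11.96, 11.30 and 12.09 in null striatum, 11.83 on the heterozygote array and 12.14, 12.16 and 12.19 in wild type striatum, a difference of -0.32 (adjusted p = 0.353). The first was -0.44 with the array SD as a covariate, and the brightest was -0.13 without null array 3 and -0.09 with that covariate. Both were free of overlap as deposited, while the third probe set differed by -0.02.

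In the peripheral stalk, Atp5o, which joins the stalk to the F1 head, differed by -0.24 (adjusted p = 0.278) and -0.51 (adjusted p = 0.202), without overlap on either probe set, and the second was -0.32 without null array 3. Atp5j, its neighbour in the stalk, differed by -0.16 (adjusted p = 0.448) with overlap. In the F1 head, Atp5a1, the alpha subunit, was chosen after its values were seen. Its brightest probe set read 11.99, 12.17, 12.70 and 11.83 in null striatum, 12.49 on the heterozygote array and 11.96, 11.75 and 11.77 in wild type striatum, a difference of 0.34 (adjusted p = 0.338) with overlap. Its other probe sets differed by 0.22 and -0.33. Null array 3 was the highest array for the first of these and the lowest for the last, so probe sets of 1 gene also disagreed on this array.

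Within genes, probe sets mostly pointed the same way. Of the 53 genes with several probe sets, 31 had all of them below 0, 4 had all above 0 and 18 had both signs, with a median range of 0.208 log2 units inside a gene. In 3 genes, Ndufa7, Ndufb6 and Atp5o, every probe set had null arrays below wild type arrays. Of all members, 30 probe sets had a mean below the median signal of the array (6.30). The 169 probe sets of subunits and isoforms had a median of -0.16 with 138 below 0, and the 16 of assembly factors one of 0.04 with 7 below 0.

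The heterozygote resembled neither group throughout. Its members had a median difference from the wild type mean of -0.08, beside -0.16 for the null group, and the same medians over all probe sets were -0.10 and -0.08. Both use the same 3 wild type arrays. Of the 185 members, 116 were below the wild type mean on the heterozygote array. With 1 array it has no spread of its own, and its difference was not tested.

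Promoters are shown for the 3 c ring genes, whose probe sets of highest signal were below 0, and for Cox8a, whose probe set of highest signal was above 0. Each window runs from 250 bases before to 50 bases after the gene start and comes from RefSeq (GRCm38.p6). Capitals mark matches to the searched motifs. The windows are Atp5g1 at chr11:96075582-96075881, Atp5g2 at chr15:102670998-102671297, Atp5g3 at chr2:73911277-73911576 and Cox8a at chr19:7217567-7217866, all on the minus strand and written 5′ to 3′.
Atp5g1: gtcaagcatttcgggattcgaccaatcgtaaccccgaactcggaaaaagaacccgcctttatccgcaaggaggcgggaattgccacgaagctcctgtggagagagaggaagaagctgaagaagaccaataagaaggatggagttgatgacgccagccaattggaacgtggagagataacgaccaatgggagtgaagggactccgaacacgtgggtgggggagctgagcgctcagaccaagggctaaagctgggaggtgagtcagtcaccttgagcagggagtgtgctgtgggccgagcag
Atp5g2: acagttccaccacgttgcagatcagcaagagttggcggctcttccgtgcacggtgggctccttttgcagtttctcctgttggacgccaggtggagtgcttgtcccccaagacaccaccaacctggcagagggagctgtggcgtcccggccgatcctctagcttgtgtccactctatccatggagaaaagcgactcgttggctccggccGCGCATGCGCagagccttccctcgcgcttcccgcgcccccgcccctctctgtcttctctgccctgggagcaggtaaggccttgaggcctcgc
Atp5g3: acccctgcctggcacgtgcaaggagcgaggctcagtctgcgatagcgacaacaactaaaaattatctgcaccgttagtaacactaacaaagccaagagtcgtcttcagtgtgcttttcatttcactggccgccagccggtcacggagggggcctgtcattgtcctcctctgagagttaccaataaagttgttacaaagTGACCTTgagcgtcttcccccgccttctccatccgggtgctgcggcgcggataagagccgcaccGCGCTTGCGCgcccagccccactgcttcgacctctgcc
Cox8a: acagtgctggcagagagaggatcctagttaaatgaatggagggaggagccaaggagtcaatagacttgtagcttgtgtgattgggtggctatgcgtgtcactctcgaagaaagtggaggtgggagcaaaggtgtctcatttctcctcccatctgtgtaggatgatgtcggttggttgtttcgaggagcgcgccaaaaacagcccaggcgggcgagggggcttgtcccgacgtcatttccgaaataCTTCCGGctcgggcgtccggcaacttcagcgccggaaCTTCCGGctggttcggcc
Motifs were searched on both strands in letters known for regulators of these genes, GCGCNTGCGC for NRF-1, AAGGTCA for estrogen-related receptors (ERR), CCGGAAG for ETS factors such as GABPA and AAGATGGC for YY1. Atp5g1 held none of them, Atp5g2 held 1 NRF-1 match, Atp5g3 held 1 NRF-1 and 1 ERR match and Cox8a held 2 ETS matches. The motifs do not overlap one another in these windows.

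Among 83 windows of 78 member genes, 20 (24.1%) held the NRF-1 motif, against 4.60% of all 32851 RefSeq windows and 7.43% of the 18109 windows of genes on the array. The ETS motif was in 22 (26.5%), against 8.86% and 13.0%, and the YY1 motif in 10, against 2.75% and 3.38%. The ERR motif was in 8 (9.64%), against 4.72% and 3.92%. At least 1 of the 4 was in 46 windows (55.4%), against 18.9% and 24.6%. GC content was similar in members (median 59.0%) and genes on the array (58.3%), and was 52.7% over all windows. Member genes with and without a motif had like differences. The medians were -0.12 for the 19 genes with an NRF-1 match and -0.17 for the 59 without, -0.14 for the 22 with an ETS match and -0.17 for the 56 without, and -0.16 with and without ERR or YY1 matches. A match is a description of letters, not a bound site.

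Energy metabolism genes outside the name rule were set beside the members. Over all probe sets, limma called 1.87% higher and 0.453% lower, and 10.9% and 8.74% had an unadjusted p under 0.05. ND5, the subunit of complex I that was the one mitochondrially encoded gene measured, averaged 13.04 ± 0.30 in null and 12.88 ± 0.10 in wild type striatum (SD, n = 4 and 3), a difference of 0.16 (adjusted p = 0.581). Cyc1, the cytochrome c1 of complex III, differed by 0.05 (adjusted p = 0.809), and the brightest probe set of Cycs, cytochrome c, by -0.20 (adjusted p = 0.501). Cytochrome c and assembly factors outside the rule had a median of -0.04 over 85 probe sets, with 1 called higher and 1 lower. The called ones were Acad9, a complex I assembly factor, at 0.97 (adjusted p = 0.0212, 1 of 3 probe sets), and Hspe1 at -0.95 (adjusted p = 0.0332, 1 of 2 probe sets). Hspe1 encodes a general mitochondrial chaperonin, which the list holds although it is not a dedicated assembly factor. Carriers and import genes had a median of -0.01 over 74 probe sets, with 1 called lower, Tomm7 of the outer membrane import pore at -0.64 (adjusted p = 0.0210, 1 of 4 probe sets). Pyruvate dehydrogenase and tricarboxylic acid cycle genes had a median of 0.02 over 39 probe sets, with 0 called by limma and 3 higher and 1 lower at an unadjusted p under 0.05. Glycolysis genes had a median of 0.09 over 38 probe sets, with 1 called higher, the hexokinase Hk1 at 0.82 (adjusted p = 0.0185, 1 of 2 probe sets). Regulators of mitochondrial genes and mitochondrial DNA had a median of 0.08 over 46 probe sets, with 0 called by limma and 5 higher and 1 lower at an unadjusted p under 0.05. Ttr, a choroid plexus gene, read 7.11, 13.44, 8.27 and 11.17 in null striatum, 7.44 on the heterozygote array and 13.34, 9.38 and 11.44 in wild type striatum, an order unlike that of the members.

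Genes with the symbol stems of cytosolic ribosomal proteins (Rpl or Rps), a group added after the data were seen, also had differences mostly below 0. These stems also admit genes of other kinds, such as S6 kinases (Rps6k), which were not taken out. The 116 probe sets of 56 genes had a median difference of -0.20, and single differences ran from -0.88 to 1.55. Null arrays lay below wild type on 35 (30.2%, against 8.85% of all probe sets) and above on 2 (1.72%, against 7.7%). Limma called 0 of them, with 2 higher and 15 lower at an unadjusted p under 0.05, beside 10.9% and 8.74% of all probe sets. Their median departure on null array 3 was -0.299, beside -0.247 for the members. In the brightest 10% of the array, 71 such probe sets had a median of -0.24. Mitochondrial ribosomal proteins, also added later, had a median of -0.09 over 156 probe sets. Null arrays lay below wild type on 22 of these (14.1%, against 8.85% of all probe sets), and 1 was called lower (0.453% of all). Proteasome subunits, added later as well, had a median of -0.03 over 80 probe sets. No difference between these groups and the members was tested.

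**Figure D5:**
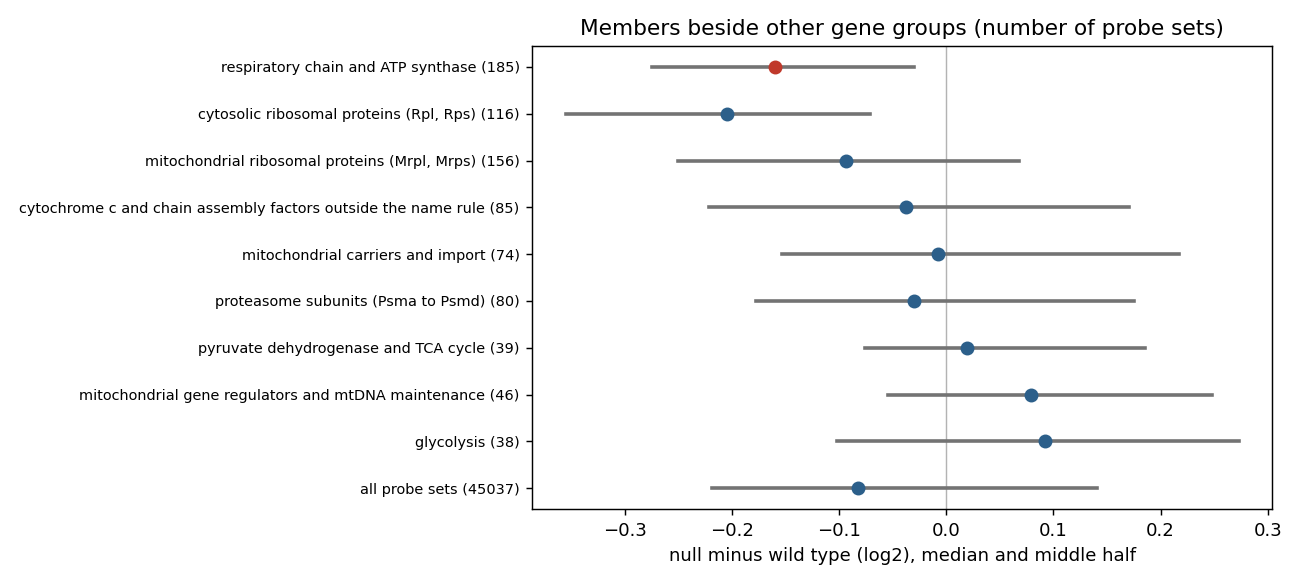
Median null minus wild type difference (log2; bars, interquartile range) of the 185 member probe sets (red) beside other gene groups and all probe sets, with the number of probe sets in parentheses. The members (-0.16) and the group picked by the stems Rpl and Rps, labelled cytosolic ribosomal proteins (-0.20), have the lowest medians shown. Glycolysis (0.09) has the highest.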

How the data were processed

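According to the series' design text, the authors ran Bioconductor's RMA function, and the deposited numbers are on its log2 scale. Its version, and the arrays it was run on together, are not given in these sources. RMA corrects background, quantile-normalizes probes and summarises by median polish, so differences of dim probe sets are compressed, and the SD over probe sets still differed between arrays. The number of arrays limits the precision. The values were used as deposited, and no control probe sets are in the table. Symbols came from the platform annotation.

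Null minus wild type was fitted with limma 3.58.1 (R 4.3.3; lmFit, eBayes, no covariate) on 45037 probe sets of 7 arrays, with Benjamini-Hochberg adjustment over all of them and a threshold of 0.05. The heterozygote was left out of the test. Each array holds 1 mouse. The test was checked on simulated data. The SAM-like d used the median SE as its constant, not the study's own. Promoter motifs were searched with Python 3.11.15 and figures drawn with matplotlib 3.10.9.

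Members and gene lists were chosen with earlier results of these data known. The genes named were Bcl11b, Ttr, each complex's gene of highest signal and of largest difference, the isoform sets and called genes of the related pathways, with later choices marked. Alternatives changed the test, the scaling, the probe sets used, the threshold and the arrays included.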

Additional observations from a re-analysis of the deposited data

Results flagged for a closer look

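On the members' median departure, null array 3 lay so far below the other null arrays that its gap to the nearest made up 0.966 of the range of the 4 null values, above Dixon's critical value for 4 values. The same ratio was 0.935 for complex I, 0.927 for complex III and 0.943 for complex V. Among named probe sets it was 0.884 for Cox4i1, 0.917 and 0.873 for the probe sets of Cox7a2, 0.841 and 0.840 for those of Atp5j2 and 0.840 for 1 of Atp5o. In each of these, null array 3 was the low one. The test was run on 39 groups of 4 null arrays, of which 10 passed, and chance passes about 1 in 20 such groups, though these groups share arrays and probe sets. Over all members, 23 (12.4%) passed, each with null array 3 lowest, against 5.62% of all probe sets. The cause of this array's low values on these genes was not tested.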

How the results depend on the processing

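Calls among members were 0 in each direction in the limma test and with an intensity trend, the array SD as a covariate, median centring, dim probe sets left out, 1 probe set per gene, either use of the heterozygote, or an adjusted p under 0.01. Calls appeared with array weights (3 higher, 5 lower, against 5.96% and 2.14% of all probe sets), at an adjusted p under 0.1 (3 higher, 3 lower, against 3.75% and 0.997%), by the SAM-like d (1 higher, 1 lower), and after rescaling or quantile normalization (1 higher each, against 1.82% and 1.86%). Shares of members called higher were below those of all probe sets. Shares called lower were above them with array weights (2.70%) and at an adjusted p under 0.1 (1.62%). The higher ones with array weights were Cox7c, Cox8a and Ndufa4, and the lower ones Ndufb10, Ndufa7, Ndufb9, Cox5b and Cox4i2. Leaving out 1 array gave 0 to 1 higher (Ndufa4, without wild type array 1) and 0 lower. The members' median difference stayed below 0 throughout, from -0.30 after rescaling to -0.10 with array weights, where the median over all probe sets was -0.08, and from -0.18 (without null array 2) to -0.10 (without null array 3) when 1 array was left out. The median of the brightest 10% of all probe sets was -0.0140 with the array SD as a covariate and -0.0105 after quantile normalization, and 0.096 to 0.231 when 1 array was left out. After rescaling, null arrays lay above wild type arrays on 3 members.

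Same-numbered null and wild type arrays deviated with correlations of -0.252, -0.309 and -0.168. These values gave no sign that the numbers pair the arrays, but so few arrays cannot exclude it. With the replicate block, 0 members were called either way and the median was -0.17.

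Of 581 recomputed values of 31 named results, 556 kept direction and side, 5 passed the threshold, 2 fell short and 18 reversed. The reversals were in 9 results, none with a difference over 0.15. With the array SD as a covariate these were Cox7a2 at 0.0090, Cox8c at 0.0061 and 0.169, Ndufa1 at -0.021 and Ndufa4l2 at 0.079. After rescaling they were Cox6b1 at -0.117, Cox7a1 at 0.020, Ndufa1 at -0.175 and Uqcrb at -0.252. Cox6a1 was 0.0023 after quantile normalization and Cox7a1 0.015 with array weights. When 1 array was left out, Cox7a1 ranged from -0.288 to 0.0089, Cox8c from -0.204 to 0.174, Ndufa1 from -0.036 to 0.191 and Ndufa4l2 from -0.249 to 0.039, each crossing 0 without wild type array 2. Cox7a2 was 0.0090 without null array 3, and Cox8c 0.00064 without null array 1 and 0.0030 without null array 2. Bcl11b missed the threshold without wild type array 3 (-1.05, adjusted p = 0.0563) and without wild type array 1 and null array 2 together (-1.01, adjusted p = 0.0695). The causes were not tested. With 4 and 3 arrays, differences of the size seen here were mostly too small to call.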
